A study of Homo sapiens with 7 samples.

Results

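Broad H3K4me3 domains were the intervals of the H3K4me3 peak list whose width, the end minus the start, was at least 4000 bp. They numbered 342 of 16112 intervals (2.12%) and held 1.72 Mb, which was 6.05% of all bases in H3K4me3 intervals. The domains were thus chosen by a measured value, and their widths and their H3K4me3 fold enrichments are given as a description, with no test. The cells were HCT116, an established human colorectal carcinoma line, for which the labels give no treatment. Chromatin was sheared for 6 min in 100 µl with PIXUL, an ultrasound instrument for 96-well plates, and 1 well of 200000 cells served each antibody. The antibodies were against H3K4me3, H3K9Ac, H3K4me1, H3K27me3, H3K36me3 and CTCF, with 1 library each, and the H3K27Ac library was not analysed here. No mark had a replicate and the read depth behind the peaks is unknown, so the 95% intervals below (Wilson for a share, Newcombe for a difference of shares) cover counting error only and compare regions of these libraries.

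H3K4me3 is laid down at promoters by the SET1 and MLL methyltransferase complexes, which are drawn to unmethylated CpG-rich DNA, and most promoters carry a narrow peak of it around the transcription start site (TSS). In many cell types a small number of genes, among them regulators of cell identity and growth control, carry a much wider stretch that runs into the gene body. H3K9Ac is an acetylation of active promoters, H3K4me1 flanks promoters and marks enhancers, H3K36me3 is deposited in the bodies of transcribed genes, H3K27me3 is the Polycomb mark of silenced genes, and CTCF is a DNA-binding protein of insulators and loop anchors.

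The DNA of the domains is shown first, read from hg19 (GRCh37). The 4 stretches that follow are the 120 bases upstream of the TSS in the widest of 101 domains that hold a single coding TSS and no annotated exon in that stretch. They are shown because the CG dinucleotide, in capitals, is the feature by which promoter DNA draws the methyltransferases. All lie within their domain.
TNRC18, chr7:5463466-5463585, minus strand: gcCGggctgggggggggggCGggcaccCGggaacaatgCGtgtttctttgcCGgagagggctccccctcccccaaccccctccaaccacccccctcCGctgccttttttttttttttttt
CCND1, chr11:69455804-69455923, plus strand: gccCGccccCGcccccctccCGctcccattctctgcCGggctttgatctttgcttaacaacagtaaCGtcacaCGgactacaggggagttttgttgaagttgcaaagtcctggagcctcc
BAHCC1, chr17:79369137-79369256, plus strand: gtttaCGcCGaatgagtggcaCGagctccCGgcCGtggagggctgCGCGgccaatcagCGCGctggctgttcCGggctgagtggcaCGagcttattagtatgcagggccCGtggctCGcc
NR2F1, chr5:92918808-92918927, plus strand: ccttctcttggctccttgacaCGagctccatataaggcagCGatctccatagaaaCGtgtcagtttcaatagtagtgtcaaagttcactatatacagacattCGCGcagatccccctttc
They held 6, 6, 13 and 5 CG dinucleotides. Over the 101 domains the count ran from 1 to 30 with a median of 13, so the widest domains were not those with the most CG just upstream of the TSS. The stretches with the fewest CG lay before SFN, which encodes 14-3-3 sigma of epithelial cells, with 1, and before ALOXE3, a lipoxygenase of the skin barrier, with 4.
SFN, chr1:27189520-27189639, plus strand: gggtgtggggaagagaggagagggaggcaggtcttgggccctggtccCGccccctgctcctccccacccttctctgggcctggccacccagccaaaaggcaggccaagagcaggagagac
ALOXE3, chr17:8021833-8021952, minus strand: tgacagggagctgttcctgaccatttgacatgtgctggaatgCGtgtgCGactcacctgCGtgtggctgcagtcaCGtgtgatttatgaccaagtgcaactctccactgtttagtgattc

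Another set of upstream stretches is shown for the letters TATAAA, the core of a TATA box, in capitals. They belong to domains among the same 101 with these letters in the 120 bases and were chosen after the values were seen.
ADM, chr11:10326500-10326619, plus strand: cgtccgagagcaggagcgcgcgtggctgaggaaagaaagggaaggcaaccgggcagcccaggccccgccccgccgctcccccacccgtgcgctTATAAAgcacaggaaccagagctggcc
JUNB, chr19:12902180-12902299, plus strand: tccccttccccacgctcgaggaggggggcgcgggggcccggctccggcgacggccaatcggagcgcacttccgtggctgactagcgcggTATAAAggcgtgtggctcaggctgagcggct
EEF2, chr19:3985462-3985581, minus strand: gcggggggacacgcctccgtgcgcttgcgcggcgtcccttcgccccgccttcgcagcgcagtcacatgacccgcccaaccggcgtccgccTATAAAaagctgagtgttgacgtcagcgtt
The first T of TATAAA lay 27 bp before the TSS of ADM (the secreted peptide adrenomedullin), 31 bp before JUNB (an AP-1 transcription factor) and 30 bp before EEF2 (a translation elongation factor). At FSCN1, which encodes the actin-bundling protein fascin, these letters lay 34 bp before the TSS. A TATA box is known to sit at about this distance from the start.

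The last set shows a CTCF core sequence, the 12 bases in capitals, inside CTCF peaks that overlap broad domains, with 10 flanking bases on each side. These are 5 peaks of high CTCF fold enrichment with a core outside annotated exons, and they are shown because CTCF binding is one of the marks compared. At SPRY2 the peak runs past an edge of the domain. The core there lies outside the domain, which ends at chr13:80917152.
ID2, chr2:8826048-8826079, minus strand: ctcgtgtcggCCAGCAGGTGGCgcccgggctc
DVL1, chr1:1285323-1285354, plus strand: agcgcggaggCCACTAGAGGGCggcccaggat
HOXA9 and HOXA10, chr7:27200747-27200778, minus strand: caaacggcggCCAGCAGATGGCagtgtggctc
ZNRD2, FAM89B and EHBP1L1, chr11:65341724-65341755, plus strand: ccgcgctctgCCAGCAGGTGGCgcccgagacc
SPRY2, chr13:80917150-80917181, plus strand: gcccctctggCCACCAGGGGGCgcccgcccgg
Fold enrichment, here and throughout, is the peak caller's ratio of read density in an interval to background. The CTCF fold enrichments of these peaks were 29.3, 23.9, 22.4, 18.0 and 15.8.

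The labelled cell type was checked against marker genes. The TSS of all 5 epithelial and intestinal markers (EPCAM, CDH1, KRT8, KRT18 and CDX2) lay in an H3K4me3 interval, and the TSS of none of the 5 markers of other lineages did. None of those 5 epithelial intervals was broad, their widths running from 1604 bp at CDH1 to 2409 bp at KRT8. The longer gene lists used below were less clear-cut. An interval of any width lay at 22 of 30 intestinal and epithelial transcription factors and 25 of 30 epithelial adhesion and keratin genes. One also lay at 6 of 18 mesenchymal genes and 5 of 32 other-lineage identity genes. Peaks were used past the limits that the study set for histone marks, a q-value under 0.001 and fold above 2 for H3K4me1 and H3K27me3, and under 1e-10 and above 5 for H3K9Ac. The latter limits were applied here to CTCF as well, for which the study states none. All 40010 deposited H3K36me3 peaks were used, since 90 pass those limits.

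The widths of the domains formed the tail of a continuous distribution. Their median width was 4643.5 bp, the interquartile range was 4250 to 5401.75 bp, and the widest reached 15716 bp. By class, 219 domains were 4 to 5 kb wide, 75 were 5 to 6 kb and 48 were wider. No gap set the domains apart from the rest. Just inside the limit lay PDGFA and ERRFI1 at 4000 bp and the domain of NOC2L and KLHL17 at 4007 bp, and just outside it lay SH3RF2 at 3988 bp and the chaperone genes HSPA8 and PTGES3 at 3987 bp. The H3K4me3 fold enrichments there were 23.4 at PDGFA, 27.3 at ERRFI1 and 42.0 at NOC2L and KLHL17 on one side, and 4.70 at SH3RF2, 23.4 at HSPA8 and 18.6 at PTGES3 on the other. Merging intervals that lay within 1000 bp of each other would have joined none of them. Domains were found on 24 chromosomes, with most on chromosome 17 (38) and chromosome 19 (32). As a share of a chromosome's H3K4me3 intervals they were 4.08% on Y (2 of 49), 3.83% on 17 (38 of 991), 3.41% on 8 (20 of 587), 3.12% on 6 (26 of 834), 2.81% on 13 (8 of 285) and 2.78% on 19 (32 of 1150), against 1.19% (13 of 1092) on chromosome 2.

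**Figure D1:**
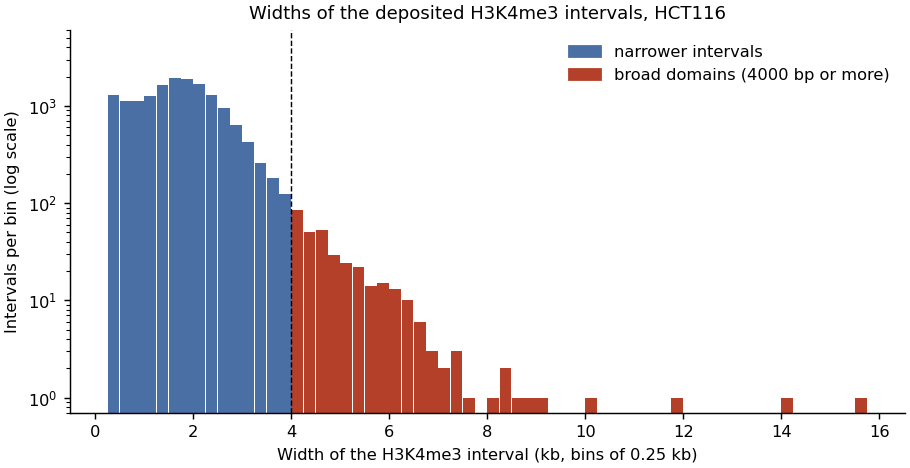
Number of H3K4me3 intervals per bin of 0.25 kb (log axis) against interval width in kb, with the 4000-bp limit as a dashed line, narrower intervals in blue and broad domains in red. The 342 broad domains form the tail of one continuous distribution that ends at 15716 bp.

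Width and height did not go together at the top. The median H3K4me3 fold enrichment was 21.4 in broad domains (interquartile range 16.8 to 26.2), 24.3 in intervals from 2000 bp up to, but not including, 4000 bp, called intervals of 2 to 4 kb from here on, and 17.8 in all narrower intervals. The domains of highest fold enrichment were all among the less wide. YWHAZ, a 14-3-3 protein, stood at 49.97 over 4488 bp, MRPL12 of the mitochondrial ribosome at 48.2 over 4083 bp, ARHGDIA at 47.1 over 4160 bp, and the lactate exporter SLC16A3 at 45.6 over 4149 bp. The domain shared by NME3, EME2 and MRPS34 followed at 43.7 over 4303 bp. Of the 342 domains, 337 also passed the study's limits for H3K4me3. The 5 that did not were a pair on chromosome Y with fold enrichments of 1.53 and 1.5, one overlapping ZNF717 on chromosome 3 with 2.20, SCNN1A, a subunit of the epithelial sodium channel, with 3.55, and one near BCL9L that holds the microRNA gene MIR4492, with 6.15 but a −log10 q of 9.04.

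Of the 20 widest domains, those of transcription and chromatin regulators are described first. The widest with a coding TSS spanned 14244 bp over HOXA9 and HOXA10, homeobox factors that pattern the body axis, with an H3K4me3 fold enrichment of 16.4 and a CTCF peak of 22.4 at one end. TNRC18 followed with 11905 bp, divided almost evenly into 6274 bp upstream and 5630 bp downstream of its TSS. At ZNF503, a zinc finger repressor, the domain of 10239 bp reached 6646 bp downstream of the TSS and so ran past the end of the 3935-bp gene. SETD1B, itself the catalytic subunit of an H3K4 methyltransferase complex, had the opposite layout, with 7416 of 9208 bp upstream of the TSS and 1791 bp in the gene.

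Among the other regulators were ID2, an inhibitor of basic helix-loop-helix factors, with 8457 bp, BAHCC1 with 8205 bp, the architectural chromatin protein gene HMGA2 with 7506 bp, and TGIF1, a homeodomain repressor of TGF-beta signalling, with 7343 bp. NR2F1, an orphan nuclear receptor, had 7322 bp, and BRD2, a bromodomain reader of acetylated histones, 7172 bp. BAHCC1 had the highest H3K4me3 fold enrichment of the 20 widest, 32.7. At HMGA2 the domain lay mostly inside the gene, with 5771 bp downstream of the TSS.

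Genes of signalling and growth made up the next group. The domain of CCND1, which encodes cyclin D1 of the G1 phase, was 8260 bp wide, 4971 bp of it upstream. It overlapped a CTCF peak of fold 9.33 that began 128 bp before the TSS and ran past the downstream edge of the domain. RGMB, a co-receptor for bone morphogenetic proteins, had 6927 bp, of which 5279 bp lay upstream, and the Hedgehog receptor gene PTCH1 had 6707 bp. ZFP36L1, whose protein binds AU-rich elements and promotes mRNA decay, had 7177 bp and the membrane protein gene DCBLD2 had 6851 bp. The cytolinker gene PLEC had 8917 bp and overlapped an H3K4me1 peak of fold 15.5, the highest at any domain, which also reached a neighbouring domain within the same gene.

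Some of the widest domains joined neighbouring genes or lay over none that codes for protein. NDUFB10, a subunit of respiratory complex I, and RPS2, a ribosomal protein, shared 7446 bp, and ZNRD2, FAM89B and EHBP1L1 shared 8697 bp. The widest interval of all, 15716 bp at chr22:46462445-46478160, held the TSS of LINC02939 and overlapped MIRLET7BHG, a host gene of let-7 microRNAs, with an H3K36me3 peak over 57.6% of it. The 6866-bp interval at chrY:13479364-13486229 overlapped no peak of any other mark.

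**Figure D2:**
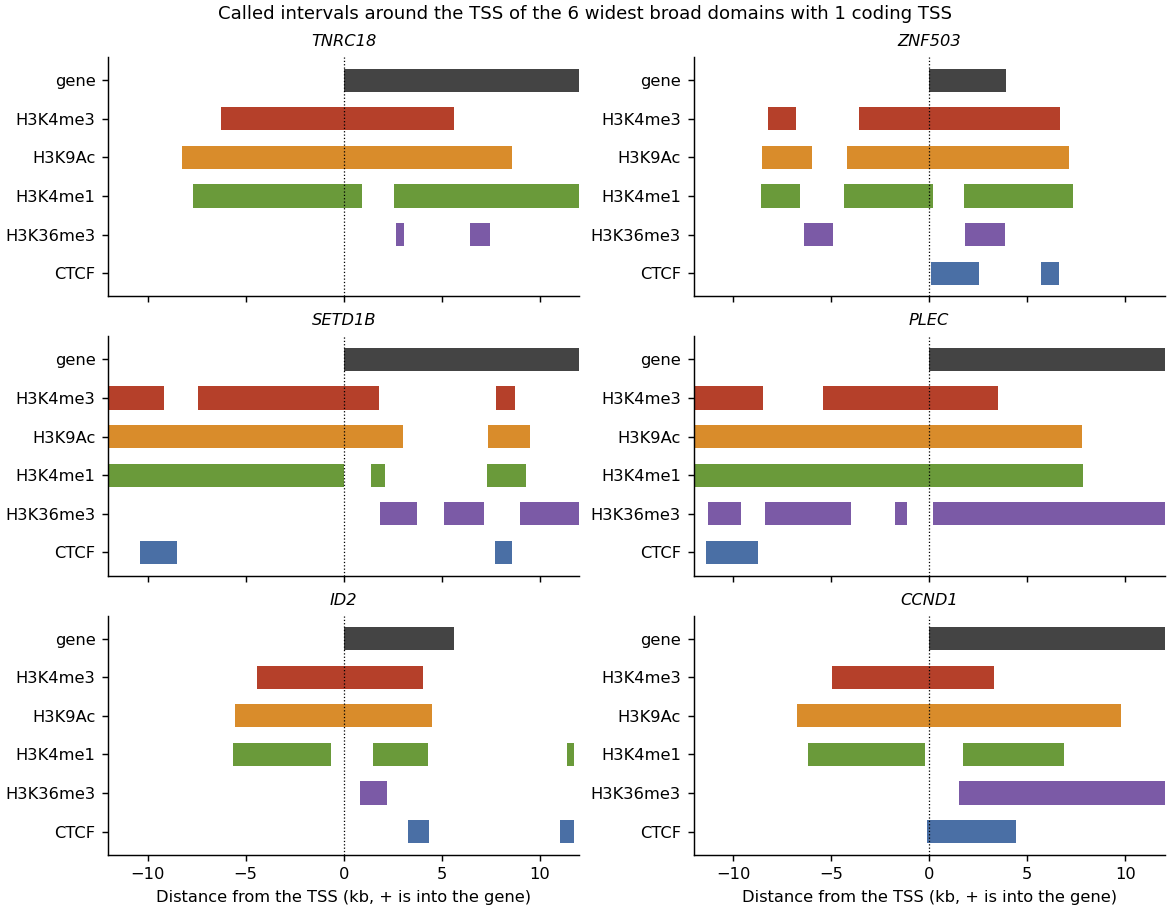
Called intervals of H3K4me3, H3K9Ac, H3K4me1, H3K36me3 and CTCF, 1 row each below a row for the gene, around the TSS (dotted line) of the 6 widest broad domains with 1 coding TSS. The x axis is the distance from the TSS in kb, positive into the gene, and bars are cut at the ends of the window. At CCND1 and ID2 the H3K4me1 peaks lie on both sides of the TSS and the H3K36me3 peak begins inside the gene.

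Broad domains held more start sites than narrower intervals. A coding TSS lay inside 90.1% of them (95% interval 86.4 to 92.8), against a background of 66.4% over all 16112 intervals. Narrower intervals had a coding TSS in 65.9%, a difference of 24.2 percentage points (20.5 to 27). Set against the intervals of 2 to 4 kb alone, the difference was 0.627 points (-3.09 to 3.49), so at that width most intervals already held a TSS and no difference was resolved.

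The number of start sites did differ from that nearest class. At least 2 coding TSS lay in 90 domains (26.3%), against a background of 8.04%, and the share was 9.49 points (4.99 to 14.5) above that of intervals of 2 to 4 kb. The share was not corrected for width, and a wider interval has more room for start sites. Of the 77 domains with exactly 2 coding TSS, 60 had a divergent pair, 14 a pair on the same strand and 3 a convergent pair. The same split over other intervals is not given here, so these counts describe the domains only. The most crowded held 4, at MAN2B1, WDR83, ENSG00000269590 and WDR83OS (5130 bp) and at ZFTRAF1, ENSG00000291316, TMEM276 and KIFC2 (6311 bp), and the widest with 3 was the ZNRD2, FAM89B and EHBP1L1 domain. The TSS of a long non-coding RNA lay in 143 domains (41.8%), against a background of 19.9% and against 29.3% of intervals of 2 to 4 kb, a difference of 12.6 points (7.31 to 18.0).

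No coding TSS lay in 34 domains. The TSS of another coding transcript, other than the canonical one, lay in 17 of them and the TSS of a lncRNA in 14, which left 9 with neither. The widest of the 34 were the interval at MIRLET7BHG, the larger one on chromosome Y, a 6368-bp interval within BCOR, a corepressor gene on chromosome X, a 6192-bp interval at the lncRNA LINC-PINT, and a 6161-bp interval within PLEC. BCOR and PLEC thus had more than one broad domain, since the domain at the BCOR TSS was a separate one of 5613 bp and that at the PLEC TSS was the one of 8917 bp. Within 20000 bp of each other lay 16 pairs of domains. The gap was 4080 bp between the domain of HOXB6 and that of HOXB7 and HOXB8, 7552 bp between HOXA3 and the HOXA9 and HOXA10 domain, and 7690 bp between ZIC5 and ZIC2, zinc finger genes of neural development. These pairs outside the widest 20 were chosen after their values were seen.

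In the 218 domains with exactly 1 coding TSS the median extension was 2711 bp downstream and 1980 bp upstream of it, against 1459.5 bp and 980 bp in intervals of 2 to 4 kb. Both extensions add up to the width by which the domains were chosen, so their lengths are a description. The median of downstream minus upstream was 690.5 bp in broad domains and 469 bp in that class, and in broad domains it was 1743 bp when counted from the 5′ end of the gene in place of the canonical TSS. The side on which the domain was longer was less often the gene body, although the median lean in bp was larger. The downstream side was the longer one in 126 of 218 broad domains (57.8%), against a background of 83% over all intervals with 1 coding TSS and 78.2% in the class of 2 to 4 kb, a difference of -20.4 points (-27.1 to -13.9). The share differed with a lncRNA TSS in the interval. It was 48.2% (39.3 to 57.3) in the 114 domains with one and 68.3% (58.8 to 76.4) in the 104 without. In the class of 2 to 4 kb these shares were 71.3% and 81.4%.

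The genes of the broad domains were shorter, with a median length of 27397 bp against 38981 bp in that class. Wholly inside their domain lay 11 of 218 (5.05%), against a background of 0.766% over all intervals with 1 coding TSS and 0.994% in that class. This share was not corrected for width, and a wider interval has more room for a whole gene.

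H3K9Ac covered the domains nearly without exception. To compare windows of equal length, each mark was read in the 2 kb around the centre of every interval. In intervals under 2 kb this window ran past both edges, so width was not kept out of the comparison with narrower intervals. Under 1 kb, H3K36me3 was in 8.35% of these windows and in 5.22% of the intervals themselves. At 1 to 2 kb these shares were 9.64% and 5.92%. H3K9Ac was there in 339 of 342 broad domains (99.1%, 97.5 to 99.7), against a background of 80.5%. The difference was 19.01 points (17.2 to 19.9) from all narrower intervals and 0.692 points (-1.0 to 1.37) from those of 2 to 4 kb, so the gap lay with the narrowest intervals. With every deposited H3K9Ac peak counted, the first difference shrank to 1.43 points.

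H3K9Ac peaks were wider over wider H3K4me3 intervals and ran past the edges of most. It was a single peak in all 339 domains that had it, and no H3K4me3 interval of any width held 2 or more. It covered at least 95% of the domain in 330 (96.5%), much as in intervals of 2 to 4 kb (96.3%). Its median width was 7741 bp over broad domains, against 3752 bp over intervals of 2 to 4 kb. It ran past both edges of the H3K4me3 interval in 321 domains (94.7%), by a median of 2597 bp in total. In that class it did so in 92.7%, by a median of 1144.5 bp. Its fold enrichment did not mark out the broad domains, with a median of 13.9 against 14.1 in that class. The 3 domains without H3K9Ac were the pair on chromosome Y and the one at ZNF717, all of low H3K4me3 fold enrichment.

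H3K4me1 covered the edges of most broad domains and, in part of them, left the middle free. In the central 2 kb it was present in 285 domains (83.3%, 79.0 to 86.9), against a background of 76.7%, 6.80 points (2.43 to 10.4) above narrower intervals and 5.14 points (0.691 to 8.88) above the class of 2 to 4 kb. This direction depended on the peaks counted, since with every deposited H3K4me1 peak the share was lower in broad domains than in narrower intervals by 3.27 points. Anywhere in the domain it was present in 332 (97.1%), against a background of 78.9%.

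The edges gave a sharper contrast. An H3K4me1 peak covered both edges of 265 domains (77.5%, 72.8 to 81.6) and of 55.2% (53.9 to 56.5) of intervals of 2 to 4 kb. In 123 domains (35.96%, 31.1 to 41.2) both edges were covered with bases free of H3K4me1 between them, by a median of 1989 bp, against 17.6% (16.6 to 18.6) in that class. In 142 domains H3K4me1 ran over the whole width, in 62 it lay at 1 edge and in 15 at neither. At least 2 H3K4me1 peaks lay in 38.3% of domains and in 18.3% of intervals of that class. These shares were not corrected for width, and a wider interval has more room for 2 peaks and a gap. Per Mb of interval there were 271 H3K4me1 overlaps in broad domains and 401 in that class. The 10 domains with no H3K4me1 peak were the pair on chromosome Y and those at MID1IP1, ARID4B and GGPS1, NECTIN3, MRPL36 and NDUFS6, MAT2B, NRIP1, FBXO5 and STAG2.

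The same layout was seen around the TSS of the 218 domains with 1 coding TSS. H3K4me1 covered 75.2% of them (69.1 to 80.5) at 1000 bp upstream, 52.8% (46.1 to 59.3) at the TSS and 70.6% (64.3 to 76.3) at 2000 bp downstream. The dip at the TSS was also present in the 2 to 4 kb class, with 60.3% at 1000 bp upstream and 43.2% at the TSS. At 5000 bp downstream, beyond the downstream edge of most domains, H3K4me1 still covered 50% (43.4 to 56.6) of broad domains and 11.2% (10.3 to 12.2) of that class. H3K9Ac at that point covered 45.9% (39.4 to 52.5) and 7.72% (6.94 to 8.59).

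**Figure D3:**
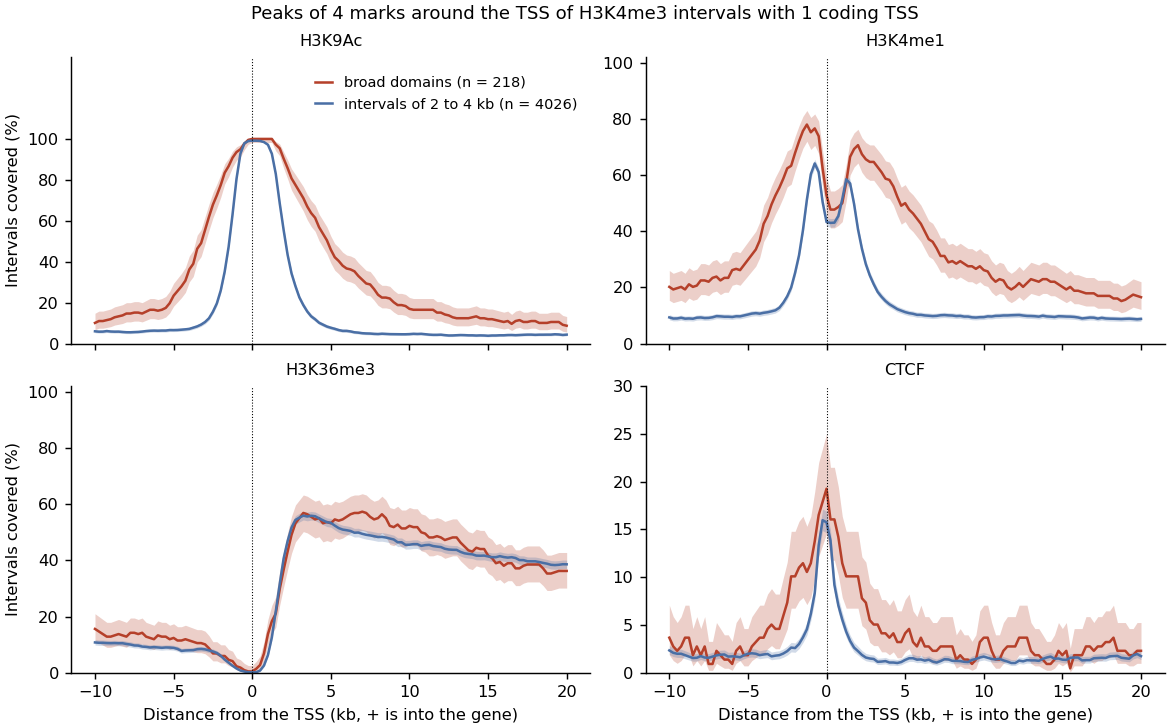
Share of intervals (%) covered by a peak of H3K9Ac, H3K4me1, H3K36me3 and CTCF by distance from the TSS in kb, positive into the gene, for 218 broad domains and 4026 intervals of 2 to 4 kb, each with 1 coding TSS. Shading gives the 95% Wilson interval, and the CTCF axis ends at 30%. H3K9Ac and H3K4me1 reach further on both sides in broad domains, whereas for H3K36me3 the shading of both groups overlaps at 2 and 5 kb into the gene but not at 1 kb.

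H3K36me3 overlapped broad domains more often than narrower intervals. It lay in the central 2 kb of 85 domains (24.9%, 20.6 to 29.7), against a background of 10.5%. The difference was 14.7 points (10.4 to 19.5) from narrower intervals and 12.8 points (8.47 to 17.8) from the class of 2 to 4 kb. With only the H3K36me3 peaks past the limits used for H3K9Ac, the shares were 2.63% of broad domains and 0.374% of narrower intervals, a difference of 2.26 points (1.01 to 4.55). Anywhere in the domain it was present in 178 (52.0%), against a background of 12.9%, and its peaks covered 13.9% of the bases of broad domains and 4.15% of those of that class.

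Measured from the TSS, however, H3K36me3 began at about the same distance in both classes. It covered 0.459% of broad domains (0.081 to 2.55) at the TSS, 36.7% (30.6 to 43.3) at 2000 bp downstream and 53.2% (46.6 to 59.7) at 5000 bp, against 0.124%, 40.7% (39.2 to 42.3) and 53.4% (51.8 to 54.9) in the 2 to 4 kb class. An exception was the point at 1000 bp, where broad domains had 13.8% (9.81 to 18.97) and that class 6.31% (5.6 to 7.10).

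Beyond the domain, H3K36me3 was found within 10 kb downstream of 184 of 207 broad domains with 1 coding TSS whose gene ran past the domain (88.9%, 83.9 to 92.5), against a background of 68.1%. The share was 21.3 points (16.2 to 25) above narrower intervals and 9.24 points (4.08 to 13.0) above the 2 to 4 kb class. For genes of at least 20 kb the last difference was 8.69 points (1.06 to 14.5). The 10 kb were counted from the edge of the interval. With 1 coding TSS, the downstream edge lay a median of 2711 bp past the TSS in broad domains and 1459.5 bp in that class. The window thus lay further into the gene in broad domains, and the differences were not corrected for this.

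The CTCF comparison depended on the peaks counted. With peaks past the limits, CTCF in the central window was present in 83 (24.3%, 20.02 to 29.1), against a background of 23.1%, and the difference was 1.21 points (-3.09 to 6.06) from narrower intervals and 3.55 points (-0.831 to 8.47) from the class of 2 to 4 kb. With every deposited CTCF peak the shares were 54.1% of broad domains and 44.6% of narrower intervals, a difference of 9.45 points (4.09 to 14.7). Anywhere in the domain CTCF was present in 116 (33.9%), against a background of 23.2%, and per Mb of interval there were 75.5 CTCF overlaps in broad domains, 84.6 in that class and 136 in all narrower intervals. The whole-interval share was thus above that of narrower intervals and the density per Mb below it.

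Around the TSS the CTCF peaks of broad domains were spread more widely. At the TSS they covered 19.3% of broad domains and 15.7% of the 2 to 4 kb class, and at 2000 bp upstream 10.1% and 2.58%. At least 2 CTCF peaks lay in 14 domains (4.09%), ZNF503 among them, against a background of 0.149%, with no correction for width. The highest CTCF fold enrichments in domains were 34.4 at THEM6, 32.0 at DNMBP, a guanine nucleotide exchange factor, 29.3 at ID2, 27.8 at YY1, a zinc finger factor known for joining enhancers and promoters, and 25.8 at the domain of RNASEK and C17orf49. The core sequence printed for ID2 lies in the peak at the downstream end of that domain, from 3280 to 4326 bp after the TSS.

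The CTCF core sequence, searched on both strands, was in 14 of the 130 CTCF peaks that overlapped broad domains (10.8%, 6.52 to 17.3). It was in 13.5% (12.4 to 14.6) of those in narrower intervals and in 24.0% (23.4 to 24.6) of those outside H3K4me3 intervals. Among the 130, 77 lay wholly inside a domain. The core sequence is only part of what CTCF is known to bind, and a peak without these letters is not thereby without CTCF.

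**Figure D4:**
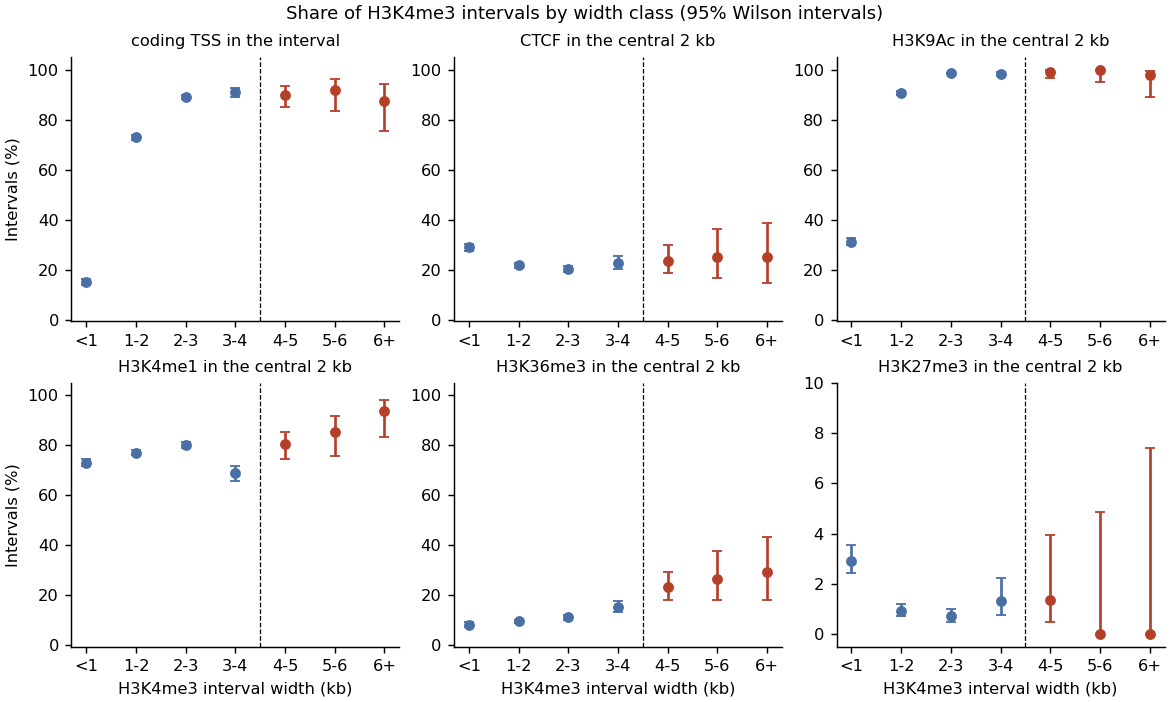
Share of H3K4me3 intervals (%) with a coding TSS inside, and with a peak of CTCF, H3K9Ac, H3K4me1, H3K36me3 or H3K27me3 in the central 2 kb, by width class in kb, with broad domains in red right of the dashed line. Bars give 95% Wilson intervals, and the H3K27me3 axis ends at 10%. H3K36me3 climbs from 8.35% in the narrowest class to 29.2% in the widest, whereas H3K9Ac and the coding TSS level off from 2 kb.

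Across width classes the marks followed different courses. The H3K36me3 share was 11.3% at 2 to 3 kb, 15.5% at 3 to 4 kb, 23.3% at 4 to 5 kb, 26.7% at 5 to 6 kb and 29.2% above that. The H3K4me1 share was 80.2%, 68.7%, 80.4%, 85.3% and 93.8% over the same classes, so it dipped at 3 to 4 kb before the broad domains. CTCF stayed between 20.3% and 25.3% over these classes. Within the broad domains the wider classes had fewer members, 75 and 48, and their intervals overlapped for every one of these marks.

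H3K27me3 was rare in broad domains, as it was over all H3K4me3 intervals. The limits left 1552 of the 55270 deposited H3K27me3 peaks, so few could be found at any interval. The interval names in the H3K27me3 list carry the letters HTON where HCT116 would be looked for, so whether that list is of the same cells could not be settled from the files, and its values are limited by that. Its peaks past the limits lay in the central 2 kb of 3 domains (0.877%, 0.299 to 2.55). The background was 1.32%, and the share in intervals of 2 to 4 kb was 0.812%. The difference from narrower intervals was -0.454 points (-1.06 to 1.22). With every deposited H3K27me3 peak that difference was -3.17 points (-4.47 to -0.850), from shares of 2.63% and 5.80%. Anywhere in the domain a peak lay in 4 (1.17%), against a background of 1.32%. At TCHH, a hair follicle protein gene, and at the ZNF717 domain the H3K27me3 peak covered 100% of the domain, with fold enrichments of 5.20 and 3.51. At ZNF423, a zinc finger factor, it covered 48.6% (fold 4.90) and in the interval within BCOR 4.68% (fold 6.74).

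The base composition of the domains was that of CpG-rich promoters. In the central 2 kb the median ratio of observed to expected CpG was 0.726, against 0.662 in narrower intervals and 0.751 in the class of 2 to 4 kb, and the median GC content was 60.9%, 57.2% and 60.5%. Over whole intervals the order against narrower intervals turned, with 0.681 in broad domains and 0.691 in narrower ones. The interval of that difference held 0, so no direction against narrower intervals holds for both windows. Against the class of 2 to 4 kb, with 0.715 over whole intervals, the median of broad domains was lower in both. Around the TSS the 413 genes of broad domains had the same median count of CG as the 11688 genes of narrower intervals, 29 in the window from 250 bases before to 50 after the TSS, and the median over all 20162 protein-coding genes was 23.

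Short motifs were searched on both strands in those promoter windows, 9 in all. TATAAA was in the promoters of 40 broad-domain genes (9.69%), in 4.14% of those of narrower intervals and in 9.80% of all protein-coding genes. The difference from narrower intervals was 5.54 points (3.02 to 8.80). HOXA9, HOXA10, RPS2, ZFP36L1, MYC, JUNB and GAPDH were among the 40, a selection made after the values were seen. So were the core histone genes H3C12, H2AC17, H2BC17, H3C4, H2AC19, H3C15 and H3C14. Some of the 40 share a domain, and the interval of the difference counts them as separate genes. The ETS core CCGGAAG was in 14.0% of broad-domain promoters, 21.2% of those of narrower intervals and 14.0% of all, a difference of -7.11 points (-10.2 to -3.36) from narrower intervals. The E-box CACGTG was in 7.02%, 10.5% and 8.74%, a difference of -3.52 points (-5.68 to -0.587).

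For 6 others the interval of the difference from narrower intervals held 0. The GC box GGGCGG was in 81.4% of broad-domain promoters, 78.5% of those of narrower intervals and 60.9% of all. In the same order, CCAAT was in 40.2%, 35.9% and 35.9%, and the cyclic AMP response element TGACGTCA in 3.63%, 3.59% and 2.68%. The AP-1 site TGANTCA was in 4.84%, 3.32% and 5.42%, the STAT-type TTCNNNGAA in 5.33%, 5.44% and 6.48%, and the TCF/LEF core CTTTGA in 6.78%, 7.25% and 10.4%. TGANTCA and TTCNNNGAA read the same on both strands in their fixed letters, and a match is a run of letters and not a bound site.

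Gene lists were counted against a background of 2.05%, the share of all 20162 protein-coding genes (413) whose TSS lay in a broad domain, or 3.41% of the 12101 with any H3K4me3 interval at the TSS. The lists share genes, with CCND1, MYC, BMP4 and ID1 in more than 1, and the counts below are descriptions. Of the MAPK feedback and output genes, 8 of 20 (40%, 21.9 to 61.3) had a broad domain, the largest share of any list. After CCND1 (8260 bp) came SPRY4, a Sprouty inhibitor of receptor tyrosine kinase signalling, with 6210 bp and fold 23.2, the MAP kinase phosphatase gene DUSP5 with 5922 bp and fold 26.2, and MYC, the growth-promoting transcription factor, with 5584 bp and fold 22.8. DUSP4, PHLDA1, DUSP6 and SPRY2 were the other four, from 4602 to 5391 bp. The median width over the list's genes with an interval was 3426 bp, against 2045 bp over all genes.

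Immediate early genes, which respond within minutes to growth signals, had a broad domain in 7 of 28 (25%, 12.7 to 43.4). These were IER2 with 6508 bp, MYC, JUNB with 5418 bp, FOSL2, another AP-1 subunit, with 4819 bp, and NR4A3, ZFP36 and KLF10 from 4050 to 4679 bp. Wnt targets and feedback genes had 5 of 20 (25%, 11.2 to 46.9). Beside CCND1 and MYC they were AXIN2, a scaffold of the beta-catenin destruction complex, with 5752 bp and fold 32.9, BMP4 with 4658 bp and DKK1, a secreted Wnt antagonist, with 4058 bp. Signalling genes of TGF-beta and BMP had 5 of 31 (16.1%, 7.09 to 32.6), namely ID2, TGIF1, the ligand BMP4, ID1 with 4634 bp and the inhibitory SMAD7 with 4464 bp.

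Of 39 HOX genes, 7 lay in broad domains (17.9%, 8.98 to 32.7), in 5 domains of the HOXA and HOXB clusters. After HOXA9 and HOXA10 these were HOXB4 with 6320 bp and fold 10.4, HOXB7 and HOXB8 with 6286 bp and fold 19.3, HOXA3 with 5011 bp and fold 8.44, and HOXB6 with 4032 bp and fold 14.3. HOX genes lie close together, so these domains share neighbourhoods. An H3K4me3 interval of any width lay at the TSS of 19 of the 39.

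Genes of intestinal and epithelial identity gave smaller counts. Intestinal and epithelial transcription factors had 4 of 30 (13.3%, 5.31 to 29.7), among which TCF7L2, a partner of beta-catenin, had 6325 bp, ID1 4634 bp and the Notch effector HES1 4358 bp. Epithelial adhesion and keratin genes had 3 of 30 (10%, 3.46 to 25.6), the tight junction gene CLDN7 with 4578 bp, the splicing regulator ESRP1 with 4566 bp and the laminin chain LAMA5 with 4508 bp. Tumour suppressor genes had 4 of 40 (10%, 3.96 to 23.1), among them the mRNA-decay factor ZFP36L1, the chromatin remodeller ARID1A with 6112 bp and fold 32.1, and CDKN1A, the cell cycle inhibitor p21, with 4580 bp. Genes of the H3K4 methyltransferase complexes and demethylases had 2 of 21 (9.52%, 2.65 to 28.9), SETD1B and the complex subunit HCFC1 with 4286 bp. Of 25 abundant lncRNA and microRNA host genes, 4 had one (16%, 6.40 to 34.7), namely SNHG3, SNHG5, ZFAS1 and MIR22HG, against a background of 0.952% of all 18702 annotated lncRNA genes. At a limit of 5000 bp none of the 25 had one.

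The remaining lists had the lowest shares at this width limit. Ribosomal protein genes had 3 of 89 (3.37%, 1.15 to 9.45), RPS2, RPL28 and RPL7, although 85 of the 89 had an interval, with a median width of 2771 bp. At a limit of 3000 bp their share was 32.6%, against 7.82% of all protein-coding genes. ZNF-numbered zinc finger genes had 5 of 508 (0.984%, 0.421 to 2.28) with 359 in an interval and a median width of 1703 bp. Of EGF receptors and ligands 0 of 14 had one, which allows a share of up to 21.5%, of mesenchymal genes 0 of 18 (up to 17.6%) and of other-lineage identity genes 0 of 32 (up to 10.7%), these being the upper ends of the 95% Wilson intervals. Of 414 olfactory receptor genes none had any H3K4me3 interval.

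**Figure D5:**
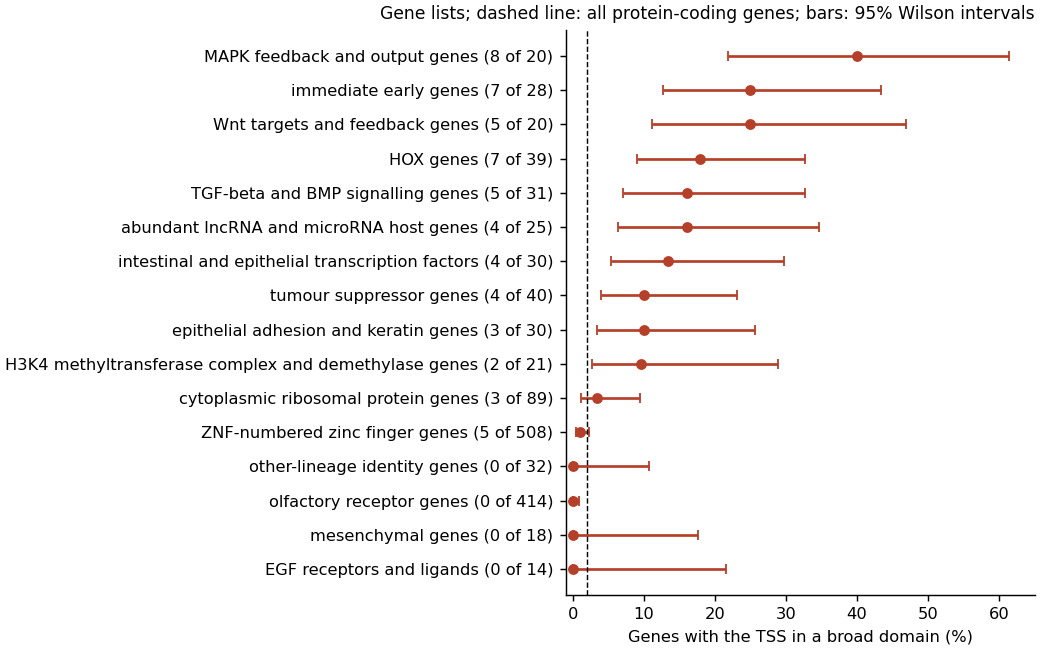
Share of each gene list (%) with the TSS in a broad domain (points) with 95% Wilson intervals (bars), and the counts beside each list's name. The dashed line is the 2.05% of all protein-coding genes, which is not the background of the lncRNA and microRNA host list. MAPK feedback and output genes lie furthest to the right with 8 of 20, and the lists with 0 genes in a domain lie at the bottom.

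Core histone genes formed a further group, chosen after the values were seen. Of 66, 9 had the TSS in a broad domain (13.6%, 7.34 to 23.9), and these lay in 4 domains. The widest, 6035 bp with fold 13.0, held H3C12, H2AC17 and H2BC17, and another of 5266 bp and fold 11.8 held H3C4, ENSG00000282988 and H2AC7, both on chromosome 6. A pair on chromosome 1, 4870 bp apart, held H2AC19 and H3C15 over 4702 bp and H3C14 and HIST2H2AA3 over 4472 bp, with folds of 20.7 and 21.9. Histone genes are short and near-identical copies, so reads that map to several of them may be placed on one or another, and the values of these domains are uncertain for that reason.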

How the data were processed

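Peak lists of 6 ChIP-seq libraries of HCT116 cells were analysed, 1 library per mark, so no replicate error exists and no p-value was computed. Each file listed intervals that the authors had called per library as broad peaks. Per the study's methods, 75-base reads with molecular identifiers were aligned to hg19 with BWA (0.7.12) and peaks were called with MACS2 (broad cutoff 0.1) against input, whereas the submitters' processing notes list MACS 1.4.2, SAMtools 0.1.19 and bcl2fastq 2.20.0.442. The sources differ on whether reads were single or paired. The deposited values used were the fold enrichment of each interval, a ratio, and its −log10 p and −log10 q. The lists hold no counts, so depth is unknown and the lists were deposited before the limits on q and fold were applied. A caller's interval can break or join with depth and background, which moves widths.

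The H3K4me3 intervals of at least 4000 bp were compared with narrower ones and with those of 2 to 4 kb. The members and gene lists were chosen with earlier results of these data known. An overlap needed 1 bp. Genes were the 20162 protein-coding genes of GENCODE release 44 on GRCh37, with the TSS of the canonical transcript for 19881 and the 5′ end of the gene otherwise, and sequences came from GRCh37, with none taken from chromosomes 8 and Y or from annotated exons. H3K36me3 was sought in the 10 kb past the downstream edge. Named genes were the 20 widest domains, the 5 of highest fold enrichment, the 3 nearest the limit on each side, the 3 with most coding TSS, the 5 widest without one, the 5 with the highest CTCF peaks, the widest up to 5 with H3K27me3 and, per list, those in a domain. A few items that this rule or the choice of sequences would name are not reported here. Shares carry 95% Wilson and differences 95% Newcombe intervals. Alternatives changed the width limit (3000 or 5000 bp), the peaks counted, the fold limit (1.5 times), the window, the TSS definition and the intervals compared. Python 3.11.15, numpy 2.4.6, pandas 2.3.3, scipy 1.17.1, pyfaidx 0.9.0.4, matplotlib 3.10.9, samtools 1.23.1 and bedtools 2.31.1 were used. The overlap step was tested on simulated intervals and recovered 700 of 700 planted overlaps, and on the 5 real lists it differed from bedtools at 0 intervals.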

Additional observations from a re-analysis of the deposited data

How the results depend on the processing

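Of 95 alternative values, 60 stayed within the spread of the value given, 33 moved beyond it and 2 changed direction. Limits of 3000 and 5000 bp gave 1327 and 123 domains. Differences below are broad minus narrower, in percentage points. With all deposited peaks of the mark, CTCF was 9.45, H3K9Ac 1.43, H3K4me1 -3.27 (direction changed) and H3K27me3 -3.17. With H3K36me3 peaks past the limits the difference was 2.26. Over the whole interval CTCF was 10.9, H3K4me1 18.6 and H3K36me3 39.99, and the CpG ratio difference was -0.00949 (direction changed, with an interval that held 0). With H3K4me3 intervals past the limits alone, the coding TSS difference was 10.3, H3K9Ac 4.79 and the CpG ratio difference 0.0298. The fold limit times 1.5 gave 25.2 for H3K9Ac and intervals with exactly 1 coding TSS gave 6.00. At 5000 bp, H3K4me1 was 12.03 and H3K27me3 -1.33. From the 5′ end of the gene, the median downstream minus upstream extension was 1743 bp. At 3000 bp the share of genes in a domain was 65% for MAPK feedback and output, 46.4% for immediate early, 42.9% for H3K4 enzyme, 36% for lncRNA and microRNA host, 33.3% for intestinal factor, 32.6% for ribosomal protein, 25% for tumour suppressor and 4.53% for ZNF-numbered genes, against 7.82% of all protein-coding genes. At 5000 bp it was 10.7% for immediate early, 6.45% for TGF-beta and BMP, 1.12% for ribosomal protein, 0.394% for ZNF-numbered, 0% for epithelial adhesion and 0% for lncRNA and microRNA host genes, against 0.749% of all. The shares of all genes at these limits were added after seeing the data. Ribosomal protein genes were thus above the background at 3000 bp and near it at 4000 bp. The cause of these shifts was not tested. No paired analysis was possible because a mark was measured in 1 library only, and for the same reason no replicate could be left out. Depth limits every absence of a peak here, since a shallower library yields fewer and narrower intervals.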
